A study of Mus musculus with 6 samples.

Results

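The genes described here are the interleukins, their receptors and related proteins, taken as every gene whose symbol in the probe annotation starts with Il and a digit. There were 77 such genes among 19057 named genes on an Illumina mouse bead array: 36 ligands, 36 receptor subunits, 4 soluble inhibitors and the enzyme Il4i1. The annotation listed no probe under the symbols Il12b, Il2rg or Il1rl1, so these genes are not covered. RNA came from the spleens of C57/B6 mice, from macrophages and from conventional dendritic cells (cDC) that were either CD8+ or CD8-, with 2 arrays per population and 6 in all. The labels name no treatment, transgene or mutation for any group, and no sorting gate, age or sex is stated in them. Whether replicates are separate animals is not stated either, and p-values therefore cover no more than the spread between these samples, which may be technical. The values given are log2 signals of 1 probe per gene, the probe with the highest mean over the 6 arrays.

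Interleukins are secreted signals that act through receptors built of several chains, and many chains are shared between ligands. The IL-1 family (Il1a, Il1b, Il18, Il33 and the Il1f genes) signals through Myd88 and Irak proteins, and IL-1 beta and IL-18 are cut to their active forms by caspase-1. Most other interleukins signal through Jak kinases and Stat factors. Macrophages and dendritic cells are sources of IL-12, IL-15, IL-18 and IL-10, and also carry receptors for signals from lymphocytes.

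A probe was counted as above background on an array when it exceeded 5.25 log2. This is the 99th percentile of 1595 probes of genes assumed to be unused by spleen cells (Krtap genes and taste, vomeronasal and olfactory receptors). Each array had between 15802 and 15827 of 45281 probes above that level. Called means an adjusted p under 0.05 in limma, with Benjamini-Hochberg adjustment over all 45281 probes. The populations matched their labels in part by markers. All 9 measured macrophage markers were higher in macrophages than in cDC, and 7 of 8 cDC markers were lower. Between CD8+ and CD8- cDC, 2 of 9 markers of CD8+ cDC were called higher and 4 of 9 of CD8- cDC lower. The Cd8a probe lay above background on only 1 of 6 arrays. In bulk RNA of this kind, fewer cells of a type and less RNA per cell cannot be told apart.

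Of the 77 genes, 15 lay above background on all 6 arrays, 22 on some arrays and 40 on none. Over all 19057 genes, 39% were above background on all arrays and 44.3% on none, against 19.5% and 51.9% of the interleukin genes. Of the ligands, 25 of 36 were at background throughout, against 14 of 36 receptor subunits. None of the 6 IL-17 family ligands (Il17a, Il17b, Il17c, Il17d, Il17f, Il25) lay above the level on any array. The other ligands at background on all 6 arrays were Il2, Il3, Il5, Il7, Il9, Il11, Il12a, Il19, Il20, Il21, Il22, Il23a, Il24, Il31, Il33, Il34, Il1f6, Il1f8 and Il1f9. The receptor genes at background throughout were Il1r1, Il1rapl1, Il1rapl2, Il1rl2, Il2ra, Il9r, Il12rb1, Il13ra2, Il17rb, Il17rc, Il17rd, Il17re, Il20ra and Il23r, along with the soluble IL-22 inhibitor Il22ra2. The values of these 40 genes ran from 4.28 to 5.23 log2 with a median of 4.51. A probe at background gives an upper bound on its own signal and does not show that the gene was silent.

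**Figure D1:**
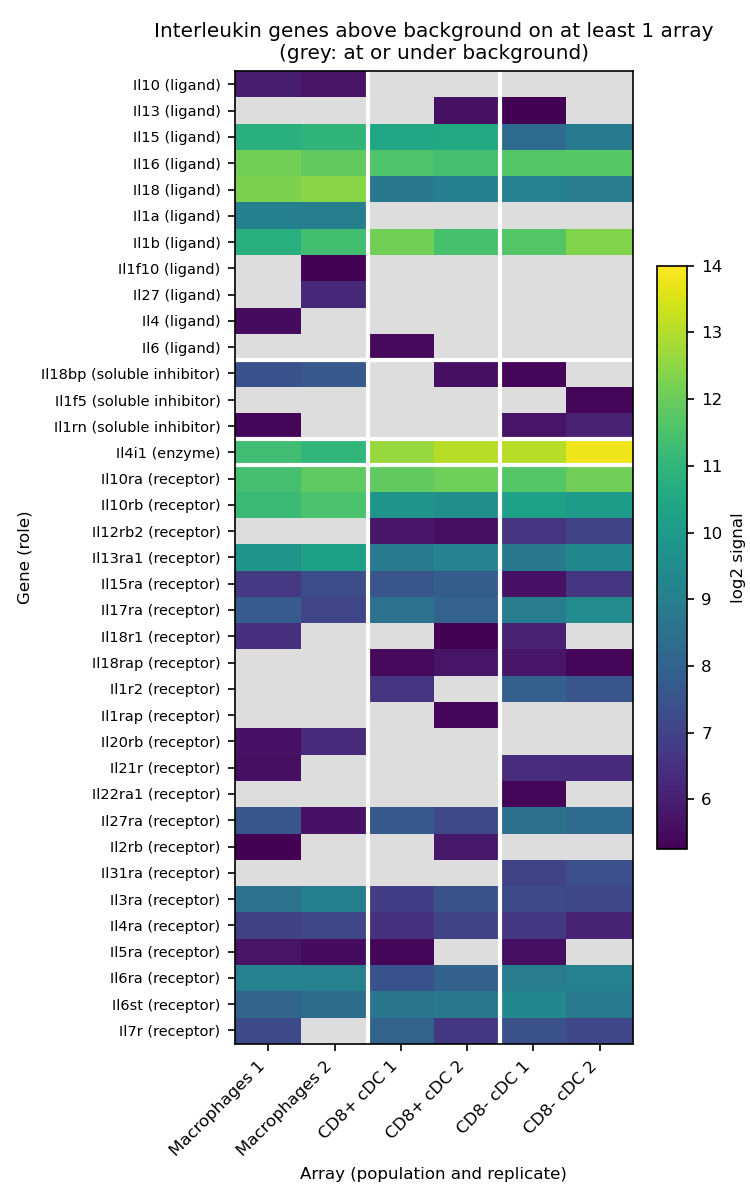
log2 signal of the 37 genes above background on at least 1 array, with 1 row per gene (role in brackets) and 1 column per array, macrophages at the left and CD8- cDC at the right. Colour gives the log2 signal and grey marks values at or under 5.25 log2; Il1a and Il10 were coloured in macrophages alone and Il31ra in CD8- cDC alone.

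Against the mean of both cDC groups, 11 of the 77 genes differed in macrophages, 8 higher and 3 lower, which is 14.3% of them. Where 1 value or count is given against both cDC groups below, it refers to this mean. Over all genes the share called in that contrast was 15.4%, with 8.22% higher and 7.21% lower. Against CD8+ cDC, 9 genes were called, 7 higher and 2 lower, where 11.8% of all genes were called, 6.55% higher and 5.25% lower. Against CD8- cDC the count was 13, 8 higher and 5 lower, beside 13.1% of all genes, 7.14% higher and 5.93% lower. Between CD8+ and CD8- cDC, 2 genes were called, 1 in each direction, beside 2.04% of all genes, 1.29% higher and 0.756% lower. The interleukin genes as a group were therefore called about as often as any gene. Their median log2 difference was -0.01 in macrophages against both cDC groups, beside -0.0023 over all genes, and 0.0062 between CD8+ and CD8- cDC, beside -0.00032.

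In at least 1 contrast 14 of the 77 genes were called, or 18.2%, beside 17.9% of all genes. All 14 came from the 37 above background somewhere, and none from the 40 at background. Of the 10620 genes on the array above background somewhere, 27.4% were called in macrophages against both cDC groups, 21% against CD8+ cDC and 23.3% against CD8- cDC, and 3.63% in CD8+ against CD8- cDC. Those 37 include genes that passed only through the population in which they are high. With each array left out in turn and the fit repeated, the count against both cDC groups was 6 without macrophage replicate 2. The count against CD8+ cDC was 3 without macrophage replicate 2 and 5 without CD8+ cDC replicate 1. Against CD8- cDC it was 8 without macrophage replicate 2, 6 when CD8- cDC replicate 1 was dropped and 5 when replicate 2 was. Between the cDC groups limma called 0 genes when any of the 4 cDC arrays was left out, with 11 to 14 genes at an unadjusted p under 0.05. A group reduced to 1 array was assumed to vary like the others. Of the 35 calls behind these counts, 13 held in all 6 such fits, and 0 changed direction.

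**Figure D2:**
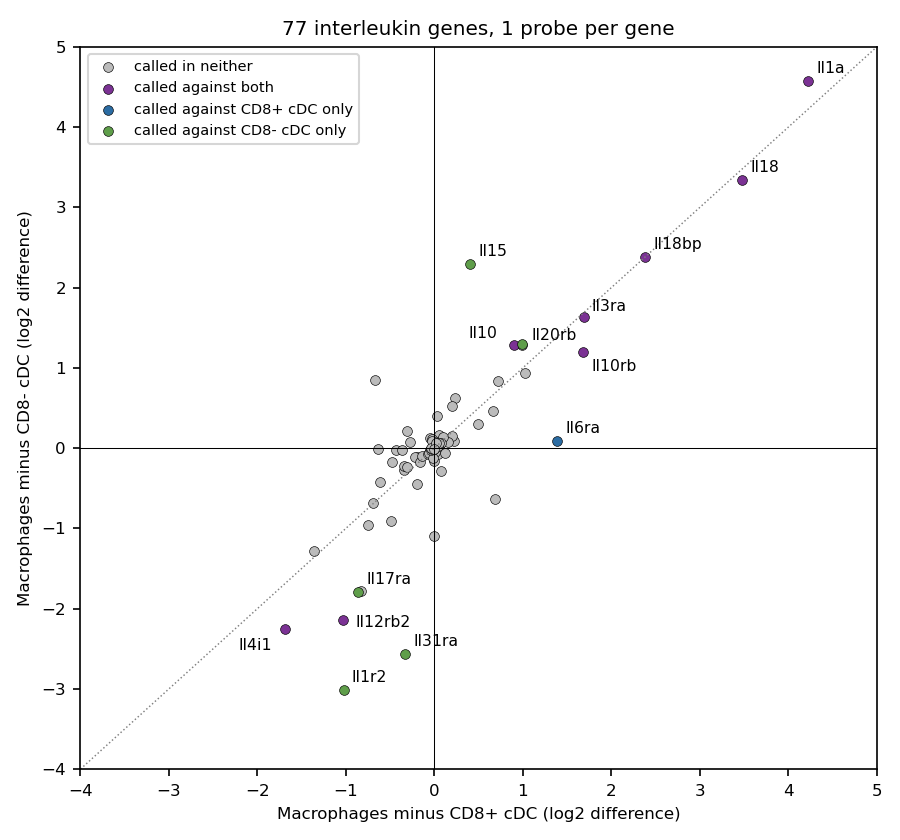
Log2 difference of macrophages minus CD8+ cDC (horizontal axis) and macrophages minus CD8- cDC (vertical axis) for all 77 genes, as fitted also where an array lay at background, with 1 point per gene coloured by call and the dotted line marking equal differences. Both axes share the macrophage arrays; Il1a and Il18 lie at the upper right, while Il15, Il31ra and Il1r2 lie off the line.

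Among the ligands, Il1a and Il18 were far higher in macrophages than in either cDC population. Il1a, which encodes the IL-1 alpha alarmin, had 9.04 and 8.99 log2 in macrophages, against 4.41 and 5.17 in CD8+ cDC and 4.45 and 4.44 in CD8- cDC. All 4 cDC arrays lay at background, below both macrophage arrays, and the cDC groups overlapped. The difference was at least 13.6-fold against each cDC group, with every cDC array counted at the background level (adjusted p = 0.00311 against CD8+ and 0.00242 against CD8- cDC). The other Il1a probe had 8.42 and 8.22 log2 in macrophages, lay at background on all 4 cDC arrays and was called against both cDC groups (adjusted p = 0.00357 for CD8+ and 0.00311 for CD8- cDC).

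Il1b, the other IL-1 gene that signals through the same receptor, is the next protein-coding gene to Il1a on chromosome 2. It had 10.72 and 11.36 log2 in macrophages, against 12.14 and 11.44 in CD8+ cDC and 11.66 and 12.33 in CD8- cDC. Macrophage values lay below those of all 4 cDC arrays, but the log2 difference of -0.85 (SE 0.33) from both cDC groups was not called (adjusted p = 0.224). Whether the 2 neighbours differ in their response to population was not tested.

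Il18, which encodes the interferon gamma inducing cytokine IL-18, had 12.29 and 12.45 log2 in macrophages, against 8.75 and 9.02 in CD8+ cDC and 9.08 and 8.97 in CD8- cDC. Macrophages stood apart and the cDC groups overlapped. The log2 difference was 3.48 against CD8+ cDC and 3.34 against CD8- cDC (SE 0.13 for both, adjusted p = 0.00171 and 0.00174), or 11.2-fold and 10.1-fold. Its other probe differed less, by 1.13 against CD8+ cDC (adjusted p = 0.0138) and by 0.68 against CD8- cDC (adjusted p = 0.0504). The calls of Il1a and Il18 held with any array left out.

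The start regions of Il1a and Il18 are shown because these ligands differed most between macrophages and cDC. Each runs from 250 bases before to 50 bases after the annotated start (RefSeq, GRCm38.p6), in lower case. Capitals mark matches on either strand to TATAAA or to the AP-1 motif TGANTCA.
Il1a (chr2:129309923-129310222, - strand): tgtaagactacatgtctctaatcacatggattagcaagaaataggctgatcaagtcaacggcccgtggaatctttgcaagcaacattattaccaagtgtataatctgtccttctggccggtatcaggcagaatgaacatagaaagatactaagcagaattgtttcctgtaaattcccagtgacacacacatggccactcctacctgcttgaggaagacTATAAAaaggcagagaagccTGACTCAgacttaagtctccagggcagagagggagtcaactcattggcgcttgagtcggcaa
Il18 (chr9:50554450-50554749, + strand): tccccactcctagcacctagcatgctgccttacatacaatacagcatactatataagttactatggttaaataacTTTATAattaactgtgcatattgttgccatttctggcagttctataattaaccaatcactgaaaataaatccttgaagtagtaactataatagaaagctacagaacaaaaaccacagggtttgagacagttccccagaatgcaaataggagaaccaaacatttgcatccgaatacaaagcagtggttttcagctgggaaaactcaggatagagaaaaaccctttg
In Il1a, TATAAA lies 32 bases and TGACTCA 12 bases before the start. In Il18 the reverse complement TTTATA begins 175 bases before it. Of all 32851 start regions in the table, 13.6% hold TATAAA and 7.81% hold TGANTCA on either strand. These are letter matches, not measured binding sites.

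Il18bp, the secreted inhibitor that binds IL-18, was also higher in macrophages. Its levels were 7.46 and 7.68 log2 in macrophages, against 4.76 and 5.62 in CD8+ cDC and 5.39 and 4.99 in CD8- cDC. Macrophages lay above all cDC arrays, the cDC groups overlapped, and 1 array of each cDC population lay just above background. The difference was at least 4.4-fold against CD8+ cDC (adjusted p = 0.0177) and at least 4.76-fold against CD8- cDC (adjusted p = 0.0169). The cDC arrays with the higher Il18bp, CD8+ replicate 2 and CD8- replicate 1, were also those with more macrophage marker signal. The mean over 9 macrophage markers was 8.79 on CD8+ replicate 2 and 8.93 on CD8- replicate 1, against 6.96 and 7.41 on the other cDC arrays and 12.99 and 13.18 in macrophages. The part of these markers in the Il18bp values was not tested. Without macrophage replicate 2 none of the 3 calls of Il18bp against cDC held (highest adjusted p 0.0989), the calls against each cDC group were also lost without macrophage replicate 1, and that against CD8- cDC without either CD8- array.

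Il15, the survival factor for NK cells and memory CD8 T cells, separated CD8- cDC from the other populations. It had 10.81 and 10.96 log2 in macrophages, 10.41 and 10.56 in CD8+ cDC, and 8.32 and 8.87 in CD8- cDC. CD8- cDC were low on both arrays, without overlap. The log2 difference was 2.29 for macrophages minus CD8- cDC (SE 0.20, adjusted p = 0.00637) and 1.89 for CD8+ minus CD8- cDC (SE 0.20, adjusted p = 0.0341). Macrophages minus CD8+ cDC gave 0.40 (SE 0.20, adjusted p = 0.402). A further Il15 probe gave 2.30 (adjusted p = 0.00217) and 1.59 (adjusted p = 0.0195) for the first 2 comparisons, and 0.71 for the last, which it called (adjusted p = 0.0348). Of its 3 other probes, 2 were at background and 1 lay above it on all 6 arrays without a call. That uncalled probe gave 0.75 for macrophages minus CD8- cDC (adjusted p = 0.127) and 1.16 between the cDC groups (adjusted p = 0.106). For macrophages minus CD8+ cDC it gave -0.41 (adjusted p = 0.434). The call against macrophages held with any array left out, whereas that between the cDC groups was lost without any of the 6 (adjusted p 0.0749 to 0.166).

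Il15ra, the chain that holds IL-15 on the cell surface for presentation to lymphocytes, was uncalled in all 4 contrasts. It had 6.69 and 7.30 log2 in macrophages, 7.51 and 7.83 in CD8+ cDC, and 5.68 and 6.63 in CD8- cDC. Its highest values were in CD8+ cDC and the cDC groups did not overlap, at a log2 difference of 1.51 (SE 0.38, adjusted p = 0.207).

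Il10, the anti-inflammatory cytokine, stood slightly above background in macrophages alone, at 5.91 and 5.71 log2, against 5.04 and 4.77 in CD8+ cDC and 4.55 and 4.49 in CD8- cDC. The groups did not overlap, and all 4 cDC arrays lay at background. The difference was at least 1.47-fold against each (adjusted p = 0.0221 and 0.00872). Against CD8+ cDC the call was lost without any of the 6 arrays (highest adjusted p 0.0893), and against CD8- cDC without either CD8- array (highest adjusted p 0.0654). Its neighbours on chromosome 1, Il19, Il20 and Il24, were at background on all arrays.

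Il16, a chemoattractant for CD4 cells, was above background everywhere, at 12.13 and 11.87 log2 in macrophages, 11.58 and 11.44 in CD8+ cDC, and 11.69 and 11.72 in CD8- cDC. Macrophages were the higher group without overlap, at a log2 difference of 0.40 from both cDC groups that was not called (adjusted p = 0.0921). The other ligands lay above background on 1 or 2 arrays and were uncalled. Il4 reached 5.51 and Il27 6.24 on 1 macrophage array each, and Il6 reached 5.48 on 1 CD8+ cDC array. Il1f10 reached 5.31 on 1 macrophage array. Il13 reached 5.66 in CD8+ cDC and 5.29 in CD8- cDC. Il4, at background on the other macrophage array and all 4 cDC arrays, had the lowest adjusted p of these (0.0501 against both cDC groups).

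Il1rn, the IL-1 receptor antagonist, had 5.41 and 5.12 log2 in macrophages, 4.40 and 4.76 in CD8+ cDC, and 5.74 and 6.05 in CD8- cDC. By this probe only CD8- cDC were above background on both arrays, and no contrast was called (adjusted p = 0.0636 for CD8+ minus CD8- cDC, where both CD8+ arrays lay at background). Another Il1rn probe lay above background on both CD8- arrays (5.43 and 6.38) and on CD8+ replicate 2 (5.79), and on no macrophage array. It gave -0.63 for CD8+ minus CD8- cDC (adjusted p = 0.8). Il1f5, the antagonist of the IL-36 receptor, reached 5.37 on 1 CD8- cDC array.

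Il4i1, a secreted amino acid oxidase, was lower in macrophages than in each cDC group. It had 11.32 and 11.01 log2 in macrophages, against 12.66 and 13.05 in CD8+ cDC and 13.05 and 13.78 in CD8- cDC. Macrophages lay below all cDC arrays, and the cDC groups touched. The log2 difference was -1.69 against CD8+ cDC (SE 0.29, adjusted p = 0.0346) and -2.25 against CD8- cDC (SE 0.29, adjusted p = 0.0154). No call of Il4i1 held without macrophage replicate 2 (highest adjusted p 0.156). The call against CD8+ cDC was also lost without macrophage replicate 1 or either CD8+ array, and that against CD8- cDC without CD8- replicate 2.

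**Figure D3:**
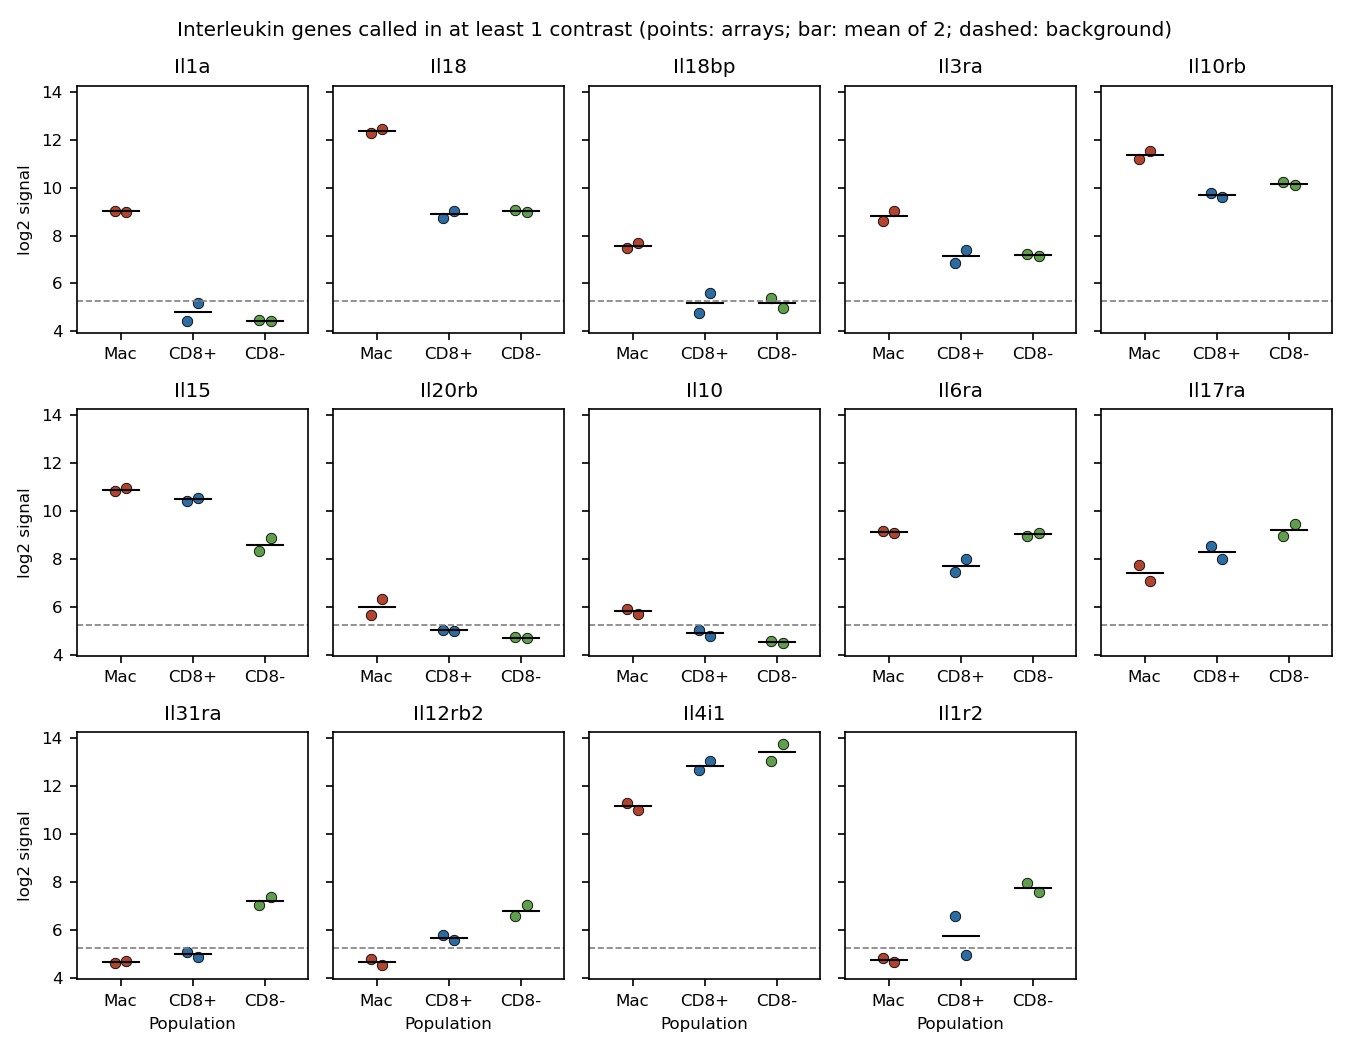
log2 signal of the 14 genes called in at least 1 contrast, with 1 panel per gene and macrophages, CD8+ cDC and CD8- cDC from left to right. Points are arrays, bars the mean of 2 arrays and the dashed line the background level; in 9 panels macrophages have the highest mean and in 5 CD8- cDC do.

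Among receptor subunits, Il10rb and Il3ra were higher in macrophages than in each cDC group. Il10rb, a chain shared by the receptors for IL-10, IL-22 and the lambda interferons, had 11.21 and 11.52 log2 in macrophages, against 9.78 and 9.59 in CD8+ cDC and 10.24 and 10.10 in CD8- cDC. No groups overlapped. The log2 difference was 1.68 against CD8+ cDC (SE 0.15, adjusted p = 0.00703) and 1.20 against CD8- cDC (SE 0.15, adjusted p = 0.0135). The other Il10rb probe had its highest values in CD8- cDC, at 6.57 and 6.47 log2, against 6.37 and 6.18 in macrophages. CD8+ minus CD8- cDC was called by that probe (-1.08, adjusted p = 0.0313) and not by the probe used (-0.48, adjusted p = 0.298). For macrophages, the other probe was called against CD8+ cDC (0.84, adjusted p = 0.0174). It gave -0.24 against CD8- cDC (adjusted p = 0.334), so the Il10rb probes disagreed there. That same call was lost without either CD8- array (highest adjusted p 0.087).

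Il10ra, the ligand-binding chain of the IL-10 receptor, ranged from 11.42 to 12.11 log2 over the 6 arrays and was not called in any contrast. Ifnlr1, which pairs with Il10rb for lambda interferons, had 5.51 and 4.76 log2 in macrophages, 8.21 and 8.19 in CD8+ cDC, and 5.70 and 5.76 in CD8- cDC. It was highest in CD8+ cDC without overlap, at least 7.05-fold lower in macrophages (adjusted p = 0.00597) and 2.47 higher in CD8+ than in CD8- cDC (SE 0.25, adjusted p = 0.0303).

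Il3ra, the IL-3 binding chain, had 8.60 and 9.03 log2 in macrophages, against 6.84 and 7.41 in CD8+ cDC and 7.21 and 7.14 in CD8- cDC. Macrophages were higher without overlap, and the cDC groups overlapped. The log2 difference was 1.69 and 1.64 (SE 0.24 for both, adjusted p = 0.0215 and 0.022). Both calls were lost without macrophage replicate 2 or either CD8- array, and that against CD8+ cDC also without CD8+ replicate 1 (highest adjusted p 0.12). Of its signalling partners, Csf2rb lay between 6.13 and 6.92 log2 on the 6 arrays and Csf2rb2 between 8.10 and 9.56, and neither was called.

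Il6ra, the IL-6 binding chain, was higher in macrophages than in CD8+ cDC. It had 9.15 and 9.07 log2 in macrophages, 7.47 and 7.97 in CD8+ cDC, and 8.94 and 9.09 in CD8- cDC. The log2 difference of macrophages minus CD8+ cDC was 1.39 (SE 0.19, adjusted p = 0.018), and that of CD8+ minus CD8- cDC was -1.30 (SE 0.19, adjusted p = 0.0608), past no threshold. Both other Il6ra probes gave 0.67 to 0.68 for the first comparison without a call (adjusted p = 0.183 and 0.197). For macrophages minus CD8- cDC the probe used gave 0.09 and the others -0.26 and -0.32, none of them called. The call was lost without either macrophage array or either CD8- array (highest adjusted p 0.0816). Il6st, the gp130 chain that carries the IL-6 signal, ran from 8.09 to 8.34 log2 in macrophages, against 8.65 to 8.75 in CD8+ cDC and 8.89 to 9.35 in CD8- cDC, and was not called (adjusted p = 0.0646 against both cDC groups).

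Il20rb, a chain of the receptors for IL-19, IL-20 and IL-24, had 5.67 and 6.33 log2 in macrophages, against 5.03 and 4.997 in CD8+ cDC and 4.73 and 4.68 in CD8- cDC. By this probe only macrophages were above background. It was at least 1.68-fold higher than in CD8- cDC (adjusted p = 0.0346), a call lost without any of the 4 cDC arrays (highest adjusted p 0.161). The other Il20rb probe did not show this pattern: it lay above background on macrophage replicate 2 (5.34) and CD8- cDC replicate 1 (5.48) alone and was not called for macrophages minus CD8- cDC (adjusted p = 0.893). Il20ra, its partner chain, was at background throughout.

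**Figure D4:**
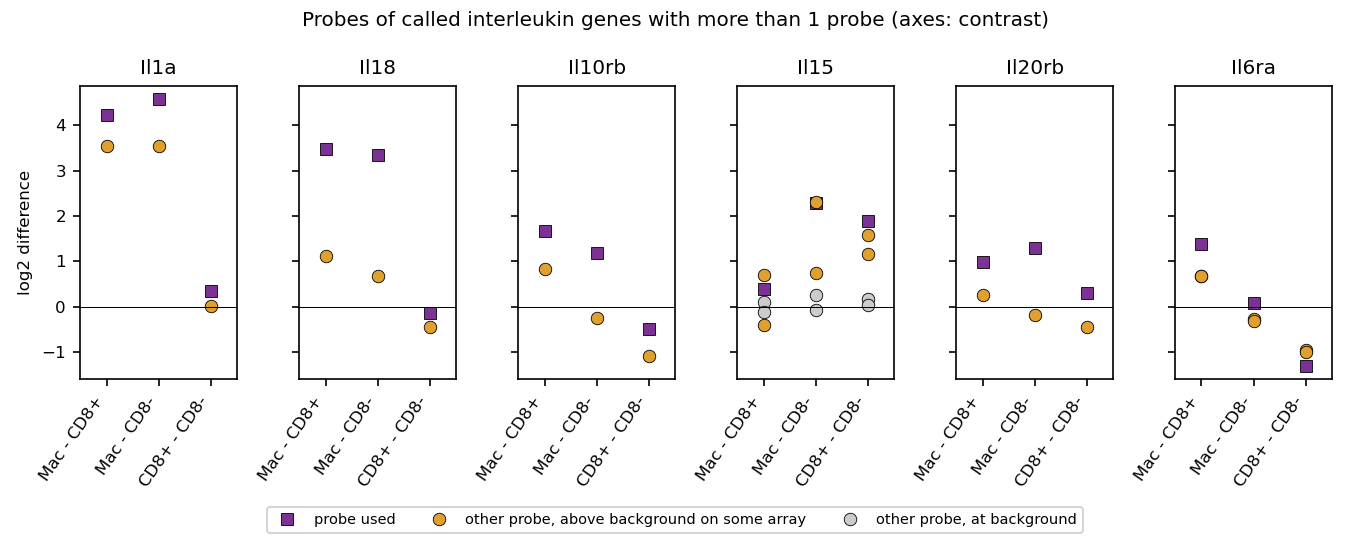
Log2 difference, as fitted also where an array lay at background, of every probe of the 6 called genes with more than 1 probe, with 1 panel per gene and the 3 pairwise contrasts on the horizontal axis. Purple squares are the probes used, orange circles other probes above background on some array, and grey circles probes at background. Among probes above background on some array, those of Il10rb, Il20rb and Il6ra differ in sign for macrophages minus CD8- cDC.

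Il31ra, Il12rb2 and Il1r2 had their highest levels in CD8- cDC and lay at background in macrophages. Il31ra, the IL-31 binding chain, had 4.60 and 4.69 log2 in macrophages, 5.09 and 4.88 in CD8+ cDC, and 7.05 and 7.39 in CD8- cDC. Only CD8- cDC lay above background. Relative to CD8- cDC it was at least 3.91-fold lower both in macrophages (adjusted p = 0.00257) and in CD8+ cDC (adjusted p = 0.0169). The call against macrophages held with any array left out, and that against CD8+ cDC was lost without any of the 4 cDC arrays (highest adjusted p 0.129). Il31ra lies next to Il6st on chromosome 13, and its known partner Osmr was at background on all 6 arrays, between 4.49 and 5.04 log2.

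Il12rb2, the IL-12 receptor chain that recruits Stat4, had 4.78 and 4.52 log2 in macrophages, 5.77 and 5.59 in CD8+ cDC, and 6.57 and 7.03 in CD8- cDC. The groups stood in that order without overlap. It was at least 1.35-fold lower in macrophages than in CD8+ cDC (adjusted p = 0.0444, and 0.191 at most with an array left out) and at least 2.92-fold lower than in CD8- cDC (adjusted p = 0.00659). The call against CD8- cDC held with any array left out, while that against CD8+ cDC was lost without any of the 4 arrays compared. CD8+ minus CD8- cDC gave -1.12 (SE 0.19, adjusted p = 0.0899). Stat4 had 8.82 and 8.64 log2 in macrophages, 8.05 and 8.41 in CD8+ cDC, and 9.67 and 9.87 in CD8- cDC, where both arrays were the highest. Stat4 was called against CD8- cDC in macrophages (-1.04, adjusted p = 0.0253) and in CD8+ cDC (-1.54, adjusted p = 0.0331). The partner chain Il12rb1 and the neighbouring gene Il23r were at background throughout.

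NK cells also carry Il12rb2 and Stat4, so their markers are given here: of 9 measured, 2 were lower in macrophages than in both cDC groups and 1 was lower in CD8+ than in CD8- cDC. The mean over 9 NK cell markers was 6.27 and 5.73 log2 in macrophages, 6.12 and 5.98 in CD8+ cDC, and 6.79 and 6.61 in CD8- cDC. Tbx21, the T-bet gene, had 5.36 and 5.12 log2 in macrophages, 4.99 and 4.88 in CD8+ cDC, and 7.71 and 7.73 in CD8- cDC. Prf1 and Klre1 were also highest on the CD8- cDC arrays, Prf1 at 11.14 and 11.42 log2 and Klre1 at 7.98 and 7.22. Klrk1 was lowest there, at 7.86 and 8.17 log2. Nkg7 was highest on macrophage replicate 1 (8.17) and Klrb1c on CD8+ cDC replicate 1 (5.74). The NK cell markers Ncr1, Gzmb and Eomes were at background on all 6 arrays. The part of NK cells in these levels was not tested.

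Il1r2, the decoy receptor for IL-1, had 4.82 and 4.66 log2 in macrophages, 6.58 and 4.95 in CD8+ cDC, and 7.94 and 7.57 in CD8- cDC. Both CD8- arrays were the highest, and the CD8+ arrays were split across the background level. It was at least 5.67-fold lower in macrophages than in CD8- cDC (adjusted p = 0.0366), a call lost without any of the 4 arrays compared (highest adjusted p 0.166). CD8+ minus CD8- cDC was not called (adjusted p = 0.242). The neighbouring gene Il1r1, the signalling IL-1 receptor, was at background on all 6 arrays, as was Il1rl2 beyond it.

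The start regions of these 3 genes are printed because each holds a match to the Stat motif TTCNNNGAA, marked in capitals, in the same windows and build as above.
Il31ra (chr13:112580613-112580912, - strand): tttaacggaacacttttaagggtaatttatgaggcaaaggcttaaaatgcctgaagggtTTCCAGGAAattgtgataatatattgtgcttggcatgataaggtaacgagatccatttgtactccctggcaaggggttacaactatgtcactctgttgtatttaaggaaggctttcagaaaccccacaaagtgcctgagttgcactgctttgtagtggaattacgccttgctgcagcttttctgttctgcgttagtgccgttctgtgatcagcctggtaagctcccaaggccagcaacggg
Il12rb2 (chr6:67376139-67376438, - strand): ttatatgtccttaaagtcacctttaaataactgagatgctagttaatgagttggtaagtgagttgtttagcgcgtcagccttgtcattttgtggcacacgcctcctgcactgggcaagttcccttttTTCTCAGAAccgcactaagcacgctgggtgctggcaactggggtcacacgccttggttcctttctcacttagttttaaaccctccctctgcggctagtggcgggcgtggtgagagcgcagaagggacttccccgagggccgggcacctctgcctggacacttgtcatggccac
Il1r2 (chr1:40085843-40086142, + strand): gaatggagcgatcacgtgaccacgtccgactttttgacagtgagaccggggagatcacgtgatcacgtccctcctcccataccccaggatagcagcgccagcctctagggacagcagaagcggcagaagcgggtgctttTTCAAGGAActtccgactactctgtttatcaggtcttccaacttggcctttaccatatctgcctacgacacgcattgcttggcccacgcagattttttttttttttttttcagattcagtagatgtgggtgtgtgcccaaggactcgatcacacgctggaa
The matches TTCCAGGAA, TTCTCAGAA and TTCAAGGAA begin 191, 123 and 111 bases before the start of Il31ra, Il12rb2 and Il1r2. Of all start regions, 8.3% hold this motif. The table held start regions for 10 of the 14 called genes, and these 3 were the ones with a match. Over all interleukin genes, 10 of 60 with a start region held one. The motif was looked at after the levels were known, together with those named above and with the interferon response (ISRE), PU.1 (GAGGAAGT), NF-kB and C/EBP (TTGCNNAA) motifs. Those were found in 0, 1, 0 and 3 of the 10, beside 3.44%, 3.2%, 0.411% and 10.8% of all start regions, and no capitals mark them because the 5 printed regions held none.

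Il17ra, the chain shared by most IL-17 receptors, had 7.76 and 7.07 log2 in macrophages, 8.55 and 8.01 in CD8+ cDC, and 8.96 and 9.46 in CD8- cDC. The groups stood in that order without overlap. Macrophages minus CD8- cDC gave -1.80 (SE 0.33, adjusted p = 0.0384), which was lost without any array other than macrophage replicate 1 (highest adjusted p 0.172). The remaining 4 IL-17 receptor genes on the array were at background. Traf3ip2, the adaptor of these receptors, was also lower in macrophages. Its level there was at least 2.73-fold below CD8+ cDC (adjusted p = 0.0136) and 2.13-fold below CD8- cDC (adjusted p = 0.0226).

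Il13ra1, a chain that binds IL-13, had 9.82 and 10.20 log2 in macrophages, against 8.85 and 9.12 in CD8+ cDC and 8.79 and 9.35 in CD8- cDC. Macrophages were higher without overlap and just missed a call (0.98, SE 0.21, adjusted p = 0.0528). Il4ra, which pairs with it, ran from 6.12 to 7.11 log2 over the arrays and was not called. Il21r had 5.61 and 4.85 log2 in macrophages, 5.22 and 5.24 in CD8+ cDC, and 6.35 and 6.29 in CD8- cDC. It was above background on both arrays in CD8- cDC alone and uncalled (adjusted p = 0.0721 for macrophages minus CD8- cDC). Il18rap, the accessory chain of the IL-18 receptor, was above background on all 4 cDC arrays, at 5.40 to 5.79 log2, and on neither macrophage array (adjusted p = 0.0603). Il5ra lay between 4.51 and 5.70, Il2rb between 4.64 and 5.82, Il1rap between 4.55 and 5.42 and Il22ra1 between 4.57 and 5.38 log2, all uncalled.

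Il7r, Il18r1 and Il27ra, receptors that lymphocytes use, differed between the macrophage arrays and were called in no contrast. Il7r had 7.20 and 4.78 log2 in macrophages, 8.04 and 6.66 in CD8+ cDC, and 7.43 and 7.12 in CD8- cDC. Il18r1 had 6.46 and 4.51 log2 in macrophages, 5.20 and 5.32 in CD8+ cDC, and 6.04 and 4.76 in CD8- cDC. Il27ra had 7.55 and 5.68 log2 in macrophages, 7.69 and 7.19 in CD8+ cDC, and 8.48 and 8.31 in CD8- cDC. Macrophage replicate 1 was the higher one in each, by more than 1 log2, and no other gene of the 37 showed such a gap in that direction. The gap was seen with the probe used alone. All other probes of these genes lay at background on both macrophage arrays, as with an Il7r probe at 4.87 and 4.51 log2.

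Markers of several cell types were also higher on macrophage replicate 1. The mean over 8 T cell markers was 6.60 and 4.77 log2 in macrophages, 5.995 and 5.16 in CD8+ cDC, and 6.09 and 5.29 in CD8- cDC, with 6 and 1 above background on the macrophage arrays, 5 and 5 on the CD8+ arrays and 5 and 3 on the CD8- arrays. Cd3e had 8.16 and 4.61 log2 in macrophages, 6.90 and 5.28 in CD8+ cDC, and 7.22 and 6.09 in CD8- cDC. Cd5 and Cd28 were at background throughout. Of 9 measured neutrophil markers, Ngp, Mmp8, Mpo and Elane were at background on all arrays. Over all 9, the mean was 6.84 and 5.05 in macrophages, 5.43 and 4.94 in CD8+ cDC, and 5.35 and 4.67 in CD8- cDC. The mean over 8 cDC markers was 7.96 and 6.997 in macrophages, 10.42 and 10.08 in CD8+ cDC, and 10.23 and 10.21 in CD8- cDC. For 8 plasmacytoid dendritic cell markers it was 8.12 and 7.14 in macrophages, 9.44 and 8.27 in CD8+ cDC, and 8.30 and 8.29 in CD8- cDC. For 8 B cell markers it was 7.28 and 6.49 in macrophages, 7.98 and 7.19 in CD8+ cDC, and 6.81 and 6.34 in CD8- cDC. The median gap between the macrophage arrays was 2.06 log2 for T cell, 1.95 for neutrophil, 1.01 for plasmacytoid dendritic cell, 0.97 for cDC and 0.70 for B cell markers. The part of any of these cells in the receptor levels was not tested.

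**Figure D5:**
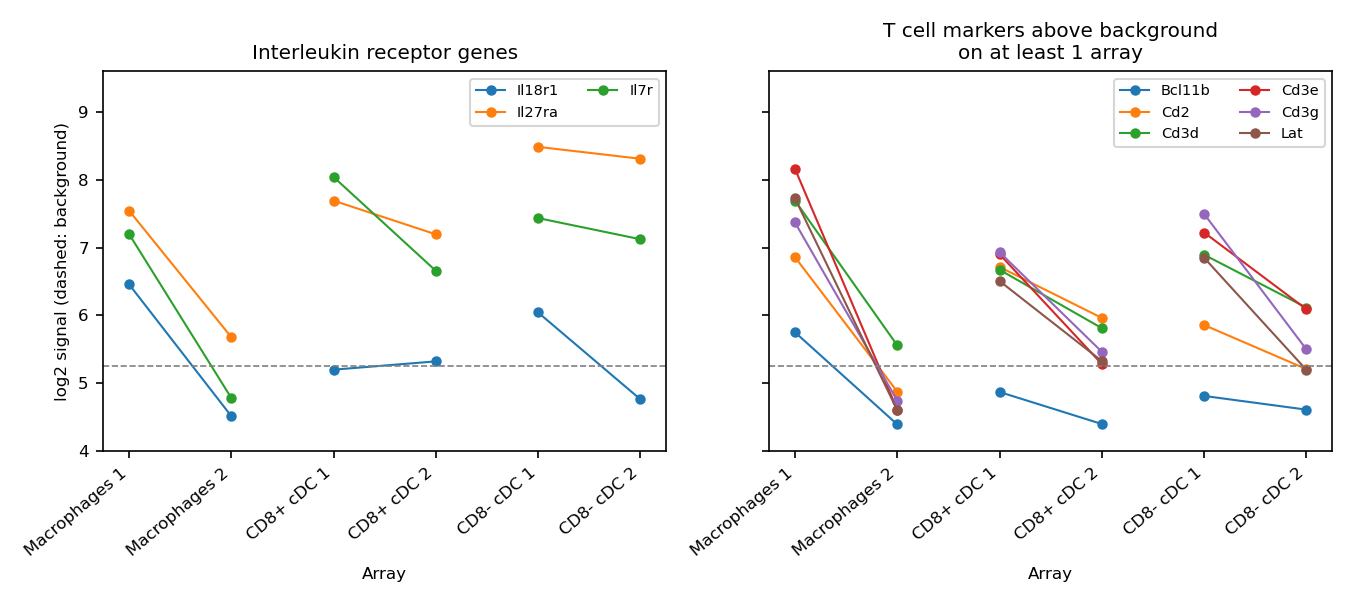
log2 signal on each array for Il7r, Il18r1 and Il27ra (left) and for the 6 T cell markers above background on at least 1 array (right), with lines joining the 2 replicates of a population and the dashed line at the background level. Macrophage replicate 1 lies above replicate 2 for every gene drawn, as with Cd3e at 8.16 and 4.61 log2.

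The proteins that carry interleukin signals were counted in lists of Jak and Stat genes, of the Myd88 pathway, of the inflammasome and of cytokine partners not named Il. Of 26 measured Jak and Stat proteins and their inhibitors, 1 was higher and 3 lower in macrophages than in both cDC groups, at a median log2 difference of -0.14 (-0.0023 over all genes). In the same contrast 8.22% of all genes were higher and 7.21% lower. Jak2 was lower (-2.42, SE 0.20, adjusted p = 0.00456), as were Stat3 (-0.82, adjusted p = 0.0147) and the phosphatase Ptpn2 (-0.83, adjusted p = 0.0147). Socs5, a suppressor of cytokine signalling, was 1.67 higher (SE 0.14, adjusted p = 0.00438). Against CD8- cDC alone, Stat5a was also lower (-1.64, adjusted p = 0.0402), and against CD8+ cDC alone the phosphatase Ptpn6 was 0.98 higher (adjusted p = 0.0436). Between CD8+ and CD8- cDC 1 gene, Stat4, was called, beside 2.04% of all genes.

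In the Myd88 and Irak pathway, 2 of 16 measured genes exceeded the mean of both cDC groups in macrophages and 3 were lower, at a median of -0.07. Over all genes 8.22% were higher and 7.21% lower in that contrast. Irak3, an inhibitory member that limits Irak signalling, had 9.19 and 9.81 log2 in macrophages, against 6.31 and 6.49 in CD8+ cDC and 6.11 and 6.51 in CD8- cDC. Macrophages were higher without overlap (3.14, SE 0.22, adjusted p = 0.00324). Sigirr, a receptor that restrains IL-1 family signals, had 5.47 and 4.62 log2 in macrophages, against 7.71 and 7.25 in CD8+ cDC and 7.56 and 7.64 in CD8- cDC. Against the mean of both cDC groups it was at least 4.52-fold lower in macrophages (adjusted p = 0.00884). For CD8+ and CD8- cDC taken singly the minimum was 4.34-fold and 4.71-fold. Ikbkb (-0.56, adjusted p = 0.0126) and Nfkbia (-0.78, adjusted p = 0.0438) were lower too and Tollip was 0.47 higher (adjusted p = 0.0442). Against the groups taken singly, Nfkbia was called in neither (adjusted p = 0.111 for CD8+ and 0.0522 for CD8- cDC). Tollip was called against CD8- cDC (adjusted p = 0.0275) but not against CD8+ cDC (adjusted p = 0.291). Tirap, a Toll-like receptor adaptor, was 1.24 higher against CD8- cDC (SE 0.22, adjusted p = 0.0337).

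Of 11 measured inflammasome genes, macrophages had 3 higher and 1 lower relative to the mean of both cDC groups, at a median of 0.36. In that contrast 8.22% of all genes were higher and 7.21% lower. Casp1, which cuts IL-1 beta and IL-18, had 12.57 and 12.89 log2 in macrophages, 11.19 and 11.08 in CD8+ cDC, and 12.26 and 12.33 in CD8- cDC. CD8+ cDC were low on both arrays. Casp1 was called in macrophages against CD8+ cDC (1.59, SE 0.13, adjusted p = 0.00623) and in CD8+ minus CD8- cDC (-1.16, SE 0.13, adjusted p = 0.0392), and not against CD8- cDC (0.43, adjusted p = 0.15). Of the NAIP sensors of bacterial proteins, Naip2 was 1.70 higher (SE 0.15, adjusted p = 0.00504) and Naip5 1.24 higher (adjusted p = 0.0157) in macrophages than in both cDC groups, and Mefv, the pyrin gene, was lower (-2.03, SE 0.13, adjusted p = 0.00254).

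Among 28 measured partners, macrophages exceeded the mean of both cDC groups in 5 and were lower in 3, at a median of -0.03. The shares over all genes in that contrast were 8.22% higher and 7.21% lower. Tslp, a cytokine that acts through a receptor containing Il7r, had 7.84 and 7.92 log2 in macrophages, against 4.72 and 4.89 in CD8+ cDC and 4.49 and 4.42 in CD8- cDC. It was above background in macrophages alone, at least 6.17-fold higher (adjusted p = 0.000935). Epor, which binds erythropoietin, exceeded the mean of both cDC groups by at least 8.23-fold (adjusted p = 0.00202). Csf3r, which binds G-CSF, exceeded that mean by at least 8.88-fold (adjusted p = 0.013). For Csf3r the difference was at least 13.1-fold against CD8+ cDC and 6.01-fold against CD8- cDC. The transforming growth factor receptors Tgfbr2 (1.87, adjusted p = 0.00234) and Tgfbr1 (1.56, adjusted p = 0.00477) were higher as well. Tnf was lower (-2.30, SE 0.41, adjusted p = 0.0306) but was called against neither group alone (adjusted p = 0.0549 for CD8+ and 0.0503 for CD8- cDC). Ifnlr1, also counted as lower, was not called against CD8- cDC (adjusted p = 0.292). The IL-27 partner Ebi3 ran from 9.57 to 10.05 log2 over the 6 arrays, with no call. Ifnlr1 was the gene of this list called between CD8+ and CD8- cDC.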

How the data were processed

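RNA of 3 spleen cell populations was measured on 6 Illumina arrays. The values are log2 signals as the authors deposited them; the base was read from their range, since the labels do not state it. The 6 columns differed by at most 0.0349 when sorted, so they were taken as already normalized between arrays, and no further step was applied. BeadStudio and limma are named, without roles, per the submitters' processing notes. A scanner table with 12 columns had names matching no label and was not used here.

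Probes were named by the platform annotation (34885 with 1 symbol, 18 with several, 10378 with none), and those with several or none stayed in the adjustment but were not named. All 77 symbols matched the GRCm38.p6 gene table. The fit covered every probe, with limma 3.58.1 (lmFit, then eBayes; R 4.3.3) and a coefficient for each group (3 residual and 1.86 prior degrees of freedom). Only 2 arrays per group limit the precision. The steps were tested on simulated data.

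Every gene called in any of 4 contrasts is named with values. Genes above background and not called get a level, and those at background only a name. From the pathway lists up to 6 called genes were taken per contrast. A few uncalled partner genes and all neighbour relations were added after their values were seen. A difference whose dimmer side had an array at background is given as a minimum fold, with such arrays set to 5.25 log2. Members, lists and the background rule were chosen with earlier results of these data known. Alternatives were the replicate number as a block, each array left out, an eBayes trend, a filter on dim probes, the mean of a gene's probes, repeated quantile normalization and a background level at the 95th percentile.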

Additional observations from a re-analysis of the deposited data

How the results depend on the processing

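The counts of interleukin genes called in macrophages against both cDC groups (11), against CD8+ cDC (9) and against CD8- cDC (13) stayed within 1.5 times under most settings, whereas that in CD8+ against CD8- cDC (2) did not. With an eBayes trend the first count was 17 and the last 6. With only probes above background on at least 2 arrays these were 17 and 5, with fewer probes to correct for, and with the mean of all probes of a gene the last was 4. The cause was not tested otherwise. With 1 array left out the counts ranged from 6 to 12, from 3 to 7, from 5 to 13 and from 0 to 2 with limma, and a smaller group is part of the construction; where the last was 0, 11 to 14 genes had an unadjusted p under 0.05. Genes at background on all arrays numbered 40, and 34 to 43 under the alternatives. Of 35 single calls, 33 held with the replicate block, 33 with the trend, 33 with the mean of probes, 35 with the filter and 35 with repeated normalization, and 0 changed direction anywhere. Replicate numbers 1 and 2 recur in every group, and the labels name nothing shared by them. Differences between replicates correlated at 0.377, 0.24 and 0.259 between groups over 19971 probes. With the replicate number as a block the counts were 14, 10, 14 and 2. The block ended the calls of Il12rb2 against CD8+ cDC (adjusted p = 0.0698) and of Il17ra against CD8- cDC (adjusted p = 0.0502). The trend ended those of Il12rb2 (adjusted p = 0.052) and Il10 (adjusted p = 0.057) against CD8+ cDC. The mean of probes ended both calls of Il20rb (adjusted p = 0.184 and 0.297). The background correction could not be varied, since the scanner columns match no label. Differences with an array at background, as for Il10 and Il20rb, are known only as a minimum.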
